A study of Mus musculus with 6 samples.

Results

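Type I interferon switches on a shared set of antiviral genes, and 39 of these genes were followed in RNA-seq of bone marrow from mice that had received MLL-AF9 leukemia cells. The genes were listed by symbol from what is known of the response. The rule used none of their values here, but they were chosen with earlier results of these data known. All 39 were found among the 55487 genes of the deposited table of normalized counts. The leukemia cells were bone marrow cells of Mx1-Cre Brd9fl/fl mice (C57BL/6, CD45.2+) transduced with the MLL-AF9 fusion oncogene, and 1000 of them were injected into irradiated CD45.1+ recipients. All recipients, the controls included, therefore carried leukemia cells with the floxed Brd9 allele and the Cre transgene, whose promoter is that of the interferon-induced gene Mx1. From the day after transplantation, recipients received 3 doses of PBS or of pIpC at 20 mg/kg, and cells were prepared 10 days after injection. pIpC (polyinosinic-polycytidylic acid) is a synthetic double-stranded RNA used to induce interferon and thereby Cre. There were 3 libraries per group. The labels call the cells GFP+ bone marrow cells, GFP being carried by the MLL-AF9 vector, whereas the methods of the study describe c-Kit+ cells. The irradiation is called lethal in the labels (2 exposures of 450 cGy) and sublethal in the methods, and the host cells that it left were not measured separately. By the methods of the study the recipients were 6 weeks old. Nothing states that the libraries of a group came from separate animals, so the p-values below measure the spread between these libraries.

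Cells detect viral or synthetic RNA with sensors such as RIG-I (Ddx58), MDA5 (Ifih1) and the endosomal receptor Tlr3, and answer with type I interferon. Interferon then acts on its receptor in the same and in neighbouring cells, where the kinases Jak1 and Tyk2 act on transcription factors such as Stat2. Stat2 and Irf9 are parts of a complex that binds the interferon-stimulated response element in the promoters of the effector genes, among them the OAS, IFIT, GBP and Mx families. In the bone marrow the response is known to reach stem cells as well as mature myeloid cells, and many of its genes also have a level that does not depend on added interferon.

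The recovered reads on genes lay between 19277439 and 22378154 in the PBS libraries and between 22348517 and 23586722 in the pIpC libraries. Brd9, the gene that the treatment was meant to delete, had normalized counts of 1927, 1946 and 1632 in the PBS libraries and of 2036, 2263 and 2011 in the pIpC libraries. Its counts were not reduced under the pIpC label (log2 difference 0.20, SE 0.13, limma adjusted p = 0.259; exact 2-sided permutation p = 0.1, the smallest that 3 against 3 libraries allow). By the methods of the study only some of its exons are lost from the floxed allele, so a count over the whole gene need not fall. The study does, however, report lower Brd9 mRNA after this deletion in bone marrow of its knockout mice without leukemia. It gives RNA-seq of their stem and progenitor cells as further evidence. In the leukemia model, the study found Brd9 poorly depleted in GFP+ marrow cells of pIpC-treated mice that died early. The study reads this as escape from deletion, and whether it holds for these libraries is not stated. The count of Brd9 here is a limited check of the labels, on which every direction below rests. One library stood apart: PBS replicate 3 differed from the other PBS libraries by gene length, with a Spearman correlation of -0.44 between its log2 difference from them and the merged exon length over 15000 genes. Of the 3 PBS libraries it held the highest value for 45.2% of all genes tested, against 30.0% for replicate 1 and 23.9% for replicate 2. The cell content also moved with the groups. The summed normalized count of 10 neutrophil markers was 16305 to 36512 in PBS and 1906400 to 1975600 in pIpC libraries, that of 9 erythroid markers 20.8 to 37.3 against 3808 to 5733, and that of 7 MLL-AF9 leukemia genes 17184 to 20640 against 4834 to 5290. All 10 neutrophil and all 9 erythroid markers rose in limma, beside 25.0% of all genes tested. Of the 7 leukemia genes 5 fell, by log2 differences from -3.11 (Hoxa7) to -6.38 (Hoxa10), beside 20.4% of all genes, and 1 rose. The other, Kit, did not pass (-0.46, limma adjusted p = 0.213). Kit alone gave 3912 to 7764 of the leukemia sum in PBS and 4156 to 4588 in pIpC libraries. Of the 9 erythroid markers, 8 passed the filter on low values only through the pIpC libraries, as did Mecom, the leukemia gene that rose. No neutrophil marker was at 0 in any library, whereas the red cell gene Slc4a1 was at 0 in all PBS libraries. Xist, the RNA transcribed from the inactive X chromosome of female cells, was at 51.0, 72.9 and 15.8 normalized counts in the PBS libraries and at 18429, 26173 and 19942 in the pIpC libraries (log2 difference 9.05, SE 0.52, limma adjusted p = 4.88e-05). The labels give no sex. The study names males for its blood analysis of PBS and pIpC recipients, but gives no sex for these libraries or for the donors of the leukemia cells. The sex of the cells sampled and the treatment therefore cannot be told apart in any comparison of the groups. In bulk RNA, fewer cells of a type and less RNA per cell cannot be told apart, and the part of these cell types and of Xist-expressing cells in the differences below was not tested.

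The element recognised by the interferon-activated complex was looked for in the promoters that RefSeq gives for GRCm38.p6, from 250 bases before to 50 bases after each start. Windows were found for 30 of the 39 genes. The core GAAANNGAAA, read on either strand, was present in 15 of these 30 genes, against 3.99% of the 27025 genes with a window and 3.85% of the 10307 genes among them that were tested here. The following stretches of 150 bases end at the base before the start and read 5′ to 3′ on the strand of the gene, with the core, on either strand, in capitals. They were chosen to show a gene high in only 1 pIpC library (Isg15), one high in pIpC replicate 1 and less so in replicate 2 (Ifit1), genes high in all 3 pIpC libraries (Oas3, Rsad2, Gbp2) and one low in all 3 (Oas1a).
Isg15, chr4:156200819-156200968, minus strand: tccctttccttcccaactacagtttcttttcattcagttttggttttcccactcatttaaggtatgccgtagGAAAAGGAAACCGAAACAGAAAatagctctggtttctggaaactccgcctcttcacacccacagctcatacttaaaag
Ifit1, chr19:34640739-34640888, plus strand: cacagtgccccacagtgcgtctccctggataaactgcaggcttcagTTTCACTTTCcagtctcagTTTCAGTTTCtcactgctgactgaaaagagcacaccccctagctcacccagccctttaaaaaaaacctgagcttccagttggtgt
Oas3, chr5:120777660-120777809, minus strand: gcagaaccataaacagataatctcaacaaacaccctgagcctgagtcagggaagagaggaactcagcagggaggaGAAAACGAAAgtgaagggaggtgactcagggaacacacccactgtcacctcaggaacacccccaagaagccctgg
Rsad2, chr12:26456453-26456602, minus strand: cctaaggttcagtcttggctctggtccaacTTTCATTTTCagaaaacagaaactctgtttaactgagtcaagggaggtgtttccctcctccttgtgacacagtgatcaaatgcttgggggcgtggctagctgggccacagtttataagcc
Gbp2, chr3:142620513-142620662, plus strand: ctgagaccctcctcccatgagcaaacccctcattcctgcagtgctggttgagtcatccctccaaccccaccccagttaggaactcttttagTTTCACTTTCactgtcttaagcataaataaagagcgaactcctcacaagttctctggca
Oas1a, chr5:120907526-120907675, minus strand: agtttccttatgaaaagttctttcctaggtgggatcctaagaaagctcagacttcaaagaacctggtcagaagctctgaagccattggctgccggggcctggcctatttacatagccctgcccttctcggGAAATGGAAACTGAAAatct
In Isg15, 3 overlapping cores began 78, 72 and 66 bases before the start, in Ifit1 there were 2 separate cores at 104 and 85 bases, and in Oas1a 2 overlapping cores at 20 and 14 bases. The core was thus found both in genes that were high and in genes that were low in the pIpC libraries: it was in 8 of 17 genes with a window that lay above PBS in every pIpC library, in 3 of 5 that did so in pIpC replicate 1 but not in all 3, and in 4 of the other 8. A match in these windows is a description of letters and not of binding.

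Taken as groups, more of the 39 genes were higher than lower in the pIpC libraries, and roles differed: 4 of 5 OAS genes, all GBP and PARP genes and the RNA sensors Ddx58, Tlr3 and Eif2ak2 rose, while Isg15, Usp18, Mx1, Irf7 and Stat2 did not pass the test. In limma on log2(normalized count + 1), at a Benjamini-Hochberg adjusted p under 0.1 over the 15020 genes whose mean reached 10 normalized counts, 19 of the 39 genes rose, against 25.0% of all genes tested, and 4 fell, against 20.4%. The other 16 did not pass. The median log2 difference over the 39 genes was 0.97, and over all genes tested it was 0.01. In 20 of the 39 genes every pIpC library lay above every PBS library, which held for 30.5% of all genes, and in 4 every pIpC library lay below, which held for 26.3%. All 39 genes passed the filter on low values, but Tlr3 and Ifi44 did so only through the pIpC libraries; of the other 37 genes, 17 rose and 4 fell, with a median log2 difference of 0.83. The plot of the values by library shows the 39 genes by role.

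**Figure D1:**
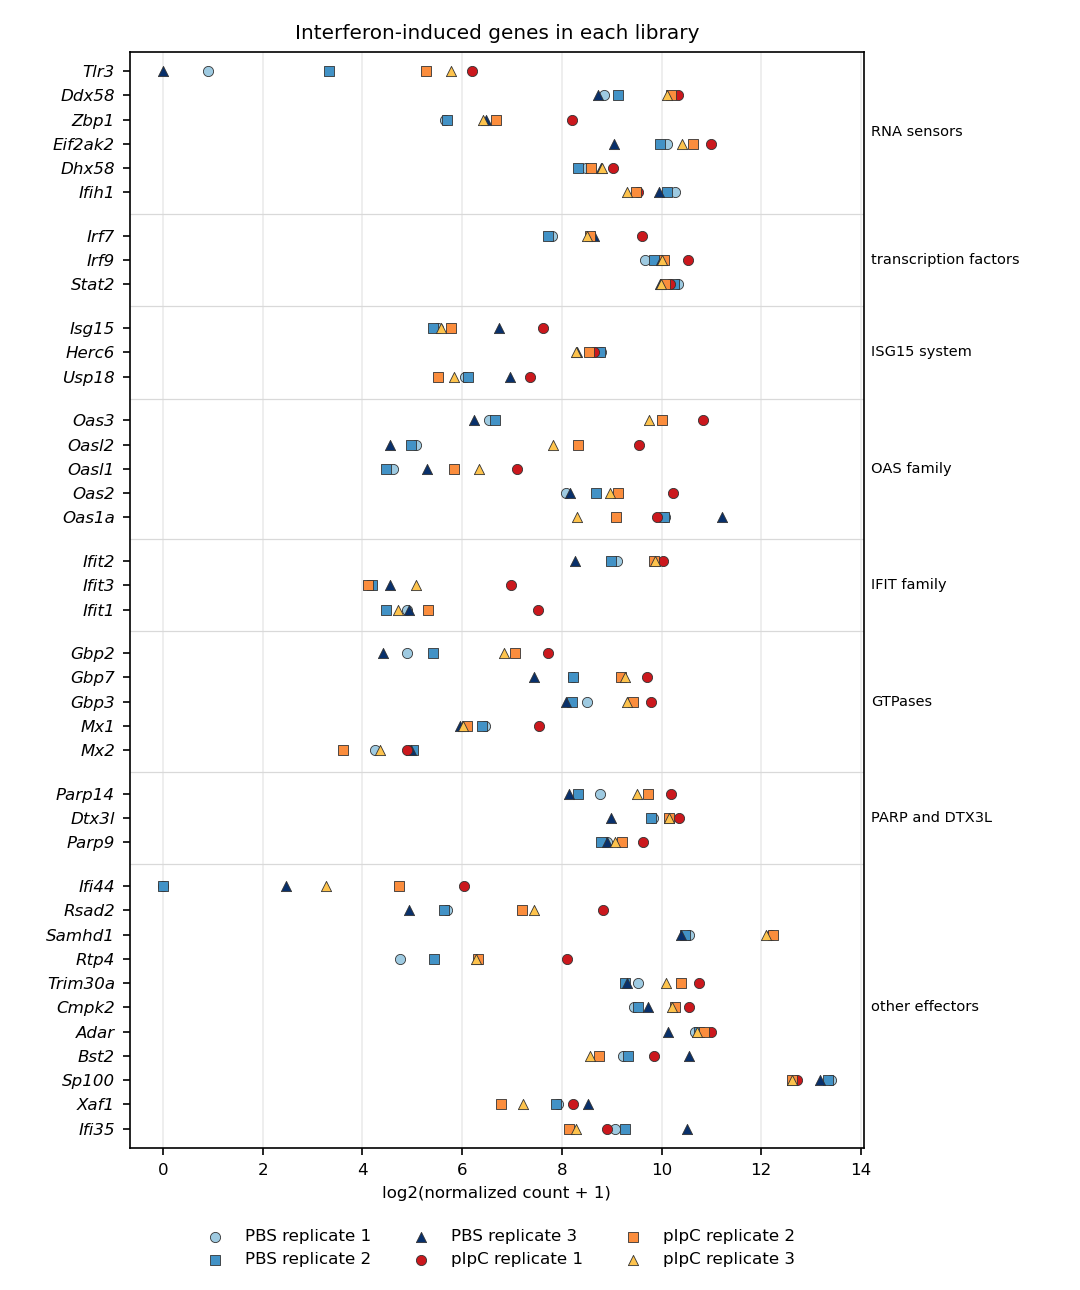
Normalized counts of the 39 interferon-induced genes in each of the 6 libraries, as log2(normalized count + 1) on the horizontal axis, with genes in rows by role and sorted by the difference between groups. Circles, squares and triangles are replicates 1, 2 and 3, blue for PBS and red to yellow for pIpC; pIpC replicate 1 (red circle) was the highest pIpC library in 38 of the 39 rows.

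Per kilobase of merged exons, Sp100, a protein of nuclear bodies, had the highest mean level of the 39 genes in both groups, 1345 in PBS and 851 in pIpC libraries, followed by Bst2 (tetherin, which holds budding virus at the cell surface) at 1007 and 637. Samhd1, which breaks down deoxynucleotides, moved from 155 to 504 normalized counts per kilobase. The lowest levels per kilobase in PBS were those of Ifi44 at 0.25 and Tlr3 at 0.64. The 39 genes together summed to 27516, 26959 and 27111 normalized counts in the PBS libraries and to 39867, 31087 and 29054 in the pIpC libraries. Sp100, which fell, gave 10748, 10401 and 9336 of these in PBS and 6704, 6270 and 6317 in pIpC libraries.

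Among the 6 RNA sensors, 3 rose and 1 fell, beside 25.0% and 20.4% of all genes tested. Without Tlr3, which passed the filter only through the pIpC libraries, 2 of 5 rose. Tlr3, the endosomal receptor for double-stranded RNA, had 0.87, 9.11 and 0 normalized counts in the PBS libraries and 72.9, 37.8 and 54.2 in the pIpC libraries. Every pIpC library was above every PBS library, although the PBS values came from 1, 9 and 0 reads. The log2 difference was 4.34 (SE 0.85, limma adjusted p = 0.00755), a value that depends on the pseudocount. Ddx58 (RIG-I) was at 459, 557 and 423 in PBS and at 1290.5, 1173 and 1097 in pIpC libraries. The groups were well apart and the pIpC libraries were close to each other (log2 difference 1.31, SE 0.15, limma adjusted p = 0.000729). Ifih1 (MDA5), which senses long double-stranded RNA as Ddx58 senses shorter RNA, went the other way, with 1235, 1103 and 987 in PBS against 733, 718 and 633 in pIpC libraries, and fell by 0.67 on the log2 scale (SE 0.14, limma adjusted p = 0.00945). Eif2ak2 (PKR), the kinase that halts translation on binding double-stranded RNA, rose by 0.97 (SE 0.30, limma adjusted p = 0.0464), whereas Zbp1 (log2 difference 1.15, SE 0.51, limma adjusted p = 0.123) and Dhx58 (LGP2; 0.28, SE 0.19, limma adjusted p = 0.283) did not pass.

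None of the 3 transcription factors passed limma in the group comparison or in any single pIpC library. Irf7, which drives the interferon genes themselves, had 221, 211 and 399 normalized counts in PBS and 777, 376 and 362 in pIpC libraries. Only pIpC replicate 1 lay above all PBS libraries, and the other pIpC libraries lay below PBS replicate 3 (log2 difference 0.83, SE 0.38, limma adjusted p = 0.132). Irf9, the DNA-binding part of the complex, was at 812, 916 and 1021 in PBS and at 1488, 1061 and 1027 in pIpC libraries. All 3 pIpC libraries lay above PBS, replicate 3 by a narrow margin (0.36, SE 0.18, limma adjusted p = 0.167). Stat2 was at 1278, 1211 and 1008 in PBS and at 1156, 1081 and 1021 in pIpC libraries, with every pIpC value inside the PBS range (-0.10, SE 0.14, limma adjusted p = 0.608), and it was the only one of the 39 genes for which no pIpC library lay outside the range of the PBS libraries.

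None of the 3 genes of the ISG15 system passed the group test. Isg15 (chr4:156199424-156200818), a ubiquitin-like protein that is attached to other proteins after interferon, had 45.0, 41.5 and 106 normalized counts in PBS and 196, 54.1 and 46.4 in pIpC libraries. Its groups overlapped, since PBS replicate 3 was well above pIpC replicates 2 and 3, and pIpC replicate 1 was the highest of all 6 libraries (log2 difference 0.43, SE 0.63, limma adjusted p = 0.619). Usp18, the protease that takes Isg15 off and dampens the receptor, had 65.8, 68.8 and 123 in PBS and 164, 45.0 and 56.1 in pIpC libraries: replicate 1 lay above all PBS libraries and replicates 2 and 3 below all of them. Its log2 difference was -0.14 (SE 0.53, limma adjusted p = 0.851). Herc6, the main ligase for Isg15 in the mouse, differed by -0.13 (SE 0.19, limma adjusted p = 0.62). The sign of the differences of Usp18, Isg15 and Mx1 changed with the library left out. Uba7 and Ube2l6, the enzymes that charge and pass on Isg15 and which were listed among the signalling genes, both rose, and the 3 pIpC libraries were alike: Ube2l6 was at 66.6, 62.8 and 128 in PBS and at 1055, 907 and 952 in pIpC libraries (log2 difference 3.56, SE 0.29, limma adjusted p = 0.000163).

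The OAS family, which makes oligoadenylates on binding double-stranded RNA, held some of the largest differences. Of its 5 genes 4 rose and 1 fell, beside 25.0% and 20.4% of all genes tested. Oas3 (chr5:120753098-120777661) had 92.6, 100.2 and 74.7 normalized counts in PBS and 1829, 1029.9 and 858 in pIpC libraries. The groups did not overlap and the PBS values were close together (log2 difference 3.71, SE 0.30, limma adjusted p = 0.000162). Oasl2 was at 32.9, 30.4 and 22.6 against 745, 319 and 226, again with replicate 1 far above the other pIpC libraries (3.69, SE 0.45, limma adjusted p = 0.000891). Oasl1, a family member without synthetase activity, was at 23.4, 21.3 and 38.5 against 137, 56.2 and 80.3 (1.63, SE 0.41, limma adjusted p = 0.02), and Oas2 rose by 1.13 (SE 0.36, limma adjusted p = 0.047). Oas1a went the other way, from 1069, 1064 and 2361 in PBS to 962, 540.5 and 317 in pIpC libraries. All pIpC values were below all PBS values, and PBS replicate 3 was the highest (-1.34, SE 0.47, limma adjusted p = 0.0665). Reads of Oas1a can be shared with near-identical copies such as Oas1g, so its value is uncertain.

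Of the IFIT family, which binds viral RNA and blocks its translation, only Ifit2 rose. It was at 548, 508 and 307 in PBS and at 1046, 921 and 931 in pIpC libraries, with the 3 pIpC libraries close together (log2 difference 1.13, SE 0.24, limma adjusted p = 0.0097). Ifit1 and Ifit3, its neighbours on chromosome 19, had a different pattern. Ifit1 (chr19:34640871-34650009) was at 28.6, 21.3 and 29.4 in PBS and at 183, 38.8 and 25.1 in pIpC libraries, and Ifit3 was at 16.4, 17.2 and 22.6 against 125, 16.3 and 32.9. In both, pIpC replicate 1 was several-fold above every other library while the other pIpC libraries lay between 16.3 and 38.8, and neither passed the group test (1.09, SE 0.70, limma adjusted p = 0.268 for Ifit1; 1.10, SE 0.70, limma adjusted p = 0.259 for Ifit3). Their ranges over the 3 pIpC libraries, 2.81 and 2.86 on the log2 scale, were the largest of the 39 genes. Ifit3 has a near-identical copy, and reads may have been split between them.

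All 3 guanylate-binding proteins, GTPases that attack intracellular pathogens, rose, beside 25.0% of all genes tested, and neither Mx gene passed. Gbp2 had 28.6, 41.5 and 20.4 normalized counts in PBS and 209.6, 132 and 114 in pIpC libraries, without overlap (log2 difference 2.30, SE 0.36, limma adjusted p = 0.00283). Gbp7, at 298, 298 and 173 against 834, 579 and 613 (1.42, SE 0.27, limma adjusted p = 0.00627), and Gbp3 (1.25, SE 0.19, limma adjusted p = 0.00248) were also above PBS in every pIpC library. Mx1, whose promoter drives the Cre transgene and whose protein is inactive in most inbred strains because of a deletion, had 87.4, 83.0 and 61.1 in PBS and 185, 67.4 and 63.8 in pIpC libraries. Replicate 1 was above all PBS libraries, and replicates 2 and 3 were within their range (0.28, SE 0.44, limma adjusted p = 0.644). Mx2 was at 18.2, 31.4 and 30.6 against 28.9, 11.2 and 19.3 (-0.46, SE 0.43, limma adjusted p = 0.431).

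Parp14, an ADP-ribosyltransferase, was at 433, 319 and 283 in PBS and at 1166, 842 and 727 in pIpC libraries (log2 difference 1.39, SE 0.24, limma adjusted p = 0.00421). Dtx3l and Parp9, which work as a ubiquitin ligase complex, rose by 0.68 (SE 0.24, limma adjusted p = 0.0643) and 0.44 (SE 0.18, limma adjusted p = 0.0986). Parp9, at 476, 441 and 481 against 794, 586 and 539, was thus close to the threshold and lost its call under 12 of the alternatives tried. All 3 genes rose, beside 25.0% of all genes tested. In each of the 3 every pIpC library lay above every PBS library, which held for 30.5% of all genes.

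Of the 11 other effectors, 5 rose and 2 fell, beside 25.0% and 20.4% of all genes tested. Without Ifi44, which passed the filter only through the pIpC libraries, 4 of 10 rose. Samhd1 (chr2:157097533-157135265) had 1492, 1424 and 1335 normalized counts in PBS and 4669.9, 4794 and 4369.9 in pIpC libraries. It was the most even of the rises, and the only one of the 39 genes that was not highest in pIpC replicate 1 (log2 difference 1.70, SE 0.11, limma adjusted p = 7.31e-05). Rsad2 (viperin), which makes a chain-terminating nucleotide, was at 51.0, 48.6 and 29.4 against 455, 147 and 174 (2.41, SE 0.47, limma adjusted p = 0.00725), and its neighbour Cmpk2, a nucleotide kinase, rose by 0.78 (SE 0.15, limma adjusted p = 0.0062). Ifi44 was at 0, 0 and 4.53 in PBS, from 0, 0 and 4 reads, and at 64.9, 25.5 and 8.70 in pIpC libraries, which differed from each other by 2.76 on the log2 scale (3.86, SE 0.95, limma adjusted p = 0.0191). Trim30a rose by 1.04 (SE 0.19, limma adjusted p = 0.00574).

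The falls among the effectors were those of Ifi35 and Sp100. Ifi35, a leucine zipper protein, had 535, 614 and 1461 normalized counts in PBS and 476, 283 and 309 in pIpC libraries, where the high PBS value was that of replicate 3 (log2 difference -1.17, SE 0.41, limma adjusted p = 0.0638). Sp100 was at 10748, 10401 and 9336 in PBS and at 6704, 6270.1 and 6317 in pIpC libraries, a tight and complete separation, and fell by 0.66 on the log2 scale (SE 0.12, limma adjusted p = 0.00603). Rtp4, a chaperone for receptors that varied widely among PBS libraries, was at 26.0, 42.5 and 78.1 against 272, 78.7 and 76.4, so that pIpC replicate 3 did not exceed PBS replicate 3 (1.39, SE 0.61, limma adjusted p = 0.119). Adar, Bst2 and Xaf1 did not pass, with log2 differences of 0.34, -0.64 and -0.69 (limma adjusted p of 0.216, 0.314 and 0.214).

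Compared one by one, the pIpC libraries had their highest values of the interferon-induced genes mostly in replicate 1. It was the highest of the 3 pIpC libraries in 38 of the 39 genes, against 35.9% of all genes tested. pIpC replicate 2 was highest in 1 (Samhd1; 34.4% of all genes) and replicate 3 in 0 (29.5%). The genes were spread more evenly over the PBS libraries, with 15 highest in replicate 1, 7 in replicate 2 and 17 in replicate 3, beside the shares of all genes given above. The median log2 difference from the PBS mean was 1.38 in pIpC replicate 1 and 0.62 in each of replicates 2 and 3, while the median over all genes tested was 0.03, 0.02 and 0.02. With quantile normalization, median centring, TMM factors or removal of the trend with length, replicate 1 was still highest in 38 or 39 of the 39 genes. In limma with the spread taken from the PBS libraries, none of the 39 genes passed between pIpC replicates 1 and 2, 1 and 3 or 2 and 3 (0% of all genes tested in each of these comparisons), with 1 library on each side. At an unadjusted limma p under 0.05, replicate 1 was higher than replicate 2 in 4 of the 39 genes and higher than replicate 3 in 6, lower in none, and 162 and 172 of the 15020 genes tested passed. Without PBS replicate 3 these counts were 20 and 23 of the 39, of 1246 and 1003 genes in all, and again none of the 39 passed after adjustment.

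**Figure D2:**
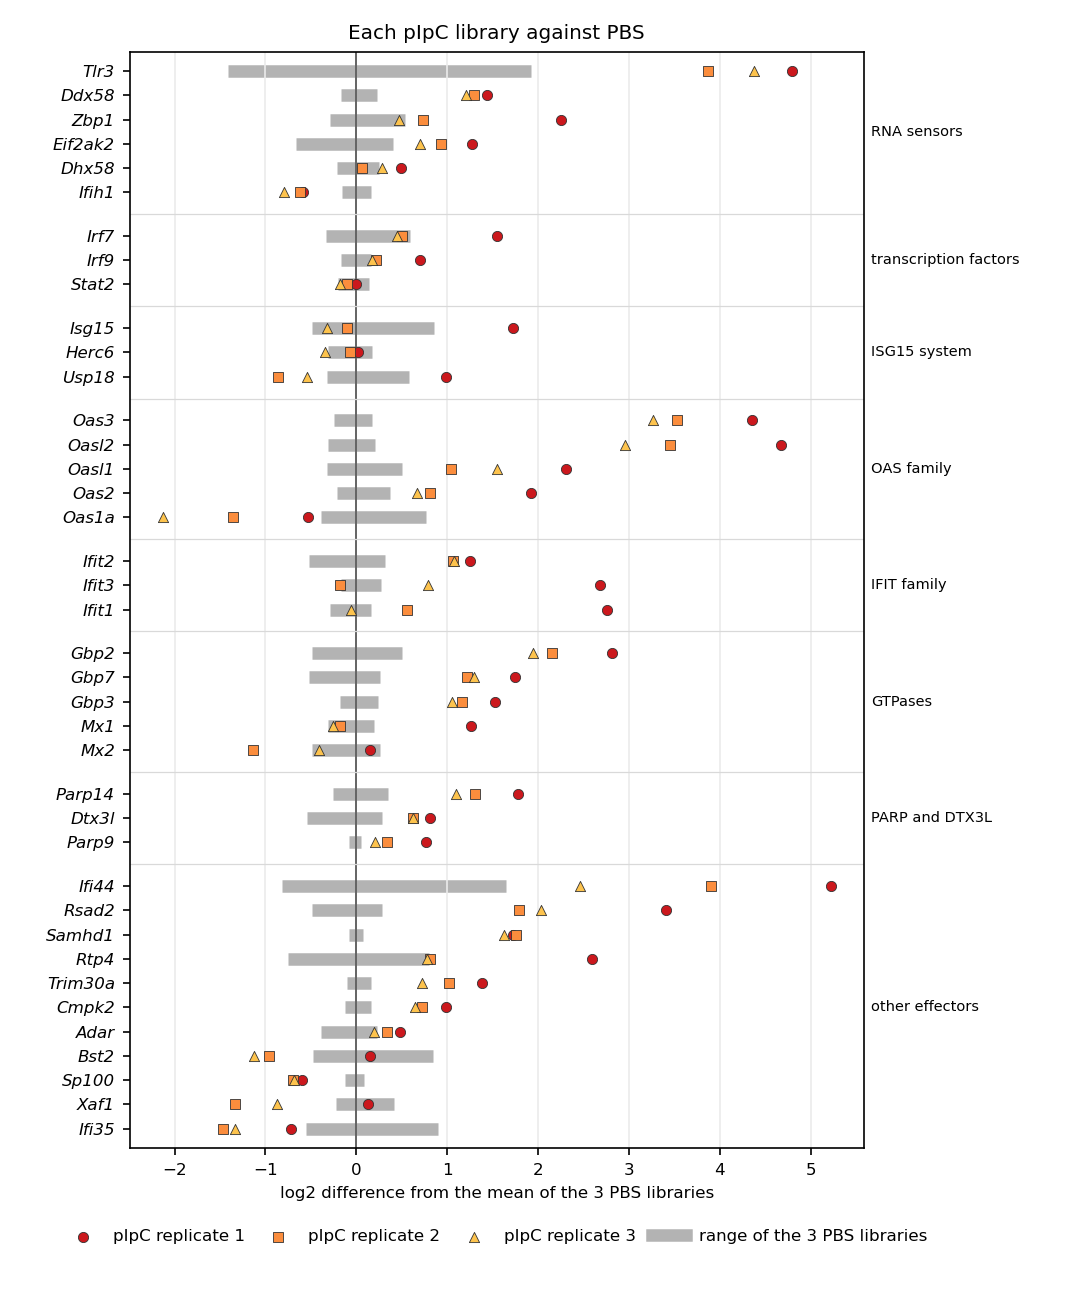
Difference of each pIpC library from the mean of the 3 PBS libraries for each of the 39 genes, on the log2(normalized count + 1) scale; grey bars span the lowest to the highest PBS library around the same mean. pIpC replicate 1 lay beyond the right end of the bar in 30 genes, replicate 2 in 24 and replicate 3 in 22.

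pIpC replicate 1 lay above all 3 PBS libraries in 30 of the 39 genes (35.3% of all genes tested did so) and below all 3 in 4 (32.2%). For pIpC replicate 2 the counts were 24 above (37.0%) and 9 below (34.6%), and for replicate 3 they were 22 above (35.9%) and 8 below (33.3%). The 30 genes of replicate 1 contained every gene above PBS in either of the others: 20 were above PBS in all 3 libraries, 4 in replicate 1 alone (Irf7, Isg15, Usp18 and Mx1), 4 in replicates 1 and 2 (Zbp1, Ifit1, Adar and Rtp4) and 2 in replicates 1 and 3 (Dhx58 and Ifit3). In the 20 genes above PBS in all 3 libraries, replicate 1 exceeded the mean of the other pIpC libraries by a median of 0.51 on the log2 scale. In the 10 genes above PBS in replicate 1 but not in all 3, the excess was 1.67 and ranged from 0.22 to 2.51. These 10 genes were sorted by the same values, with another pIpC library not above PBS. A larger excess than in the 20 thus follows in part from the sorting. The 4 genes below PBS in all 3 libraries were Ifih1, Oas1a, Ifi35 and Sp100, and in these too replicate 1 was the highest pIpC library, by a median of 0.40. Usp18, Herc6, Ifit3, Mx2, Bst2 and Xaf1 were below all PBS libraries in replicate 2 or 3 but not in replicate 1.

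Against the single PBS libraries the order was the same. Over replicates 1, 2 and 3 of PBS in turn, pIpC replicate 1 was more than 2-fold higher in 23, 25 and 22 of the 39 genes, where 15.9%, 16.3% and 25.2% of all genes tested were. For pIpC replicate 2 the counts were 12, 12 and 15, beside 16.5%, 17.3% and 26.7%, and for replicate 3 they were 11, 11 and 14, beside 16.2%, 16.9% and 25.9%. The median log2 difference over the 39 genes was 1.29, 1.24 and 1.58 for pIpC replicate 1 against the PBS libraries, 0.52, 0.68 and 0.39 for replicate 2, and 0.57, 0.49 and 0.49 for replicate 3. Set against pIpC replicate 1 directly, replicates 2 and 3 were each more than 2-fold lower in 16 of the 39 genes, beside 1.82% and 2.32% of all genes, and none of the 39 was more than 2-fold higher in either. Ifit3 differed most between replicates 1 and 2 and Ifit1 between replicates 1 and 3.

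A limma fit that kept each pIpC library as a group of its own, and so took its spread from the PBS libraries, called 12 of the 39 genes higher in pIpC replicate 1 (8.62% of all genes tested were), 5 in replicate 2 (8.99%) and 4 in replicate 3 (8.83%). Ddx58, Oas3, Oasl2 and Samhd1 were called in all 3 libraries, Trim30a in replicates 1 and 2, and Oas2, Ifit1, Ifit3, Gbp2, Gbp3, Parp14 and Rsad2 in replicate 1 alone; a call in one library and not in another does not show that they differ, and the direct comparison given above called none. Ifit1 and Ifit3, which failed the group test, were above PBS in replicate 1 by 2.76 and 2.68 on the log2 scale (limma adjusted p = 0.0504 and 0.0514). As reported here, none of the 39 genes was called lower in any single library by limma, nor by edgeR, where 4.29%, 4.22% and 4.30% of all genes were called lower by limma; 0, 2 and 3 of the 39 had an unadjusted limma p under 0.05 in that direction. The lone library is assumed to vary like the PBS libraries, and the calls depended on PBS replicate 3: without it, 30, 19 and 19 of the 39 genes were called higher and 2, 6 and 8 lower in pIpC replicates 1, 2 and 3, where 49.9%, 50.5% and 49.8% of all genes were called in either direction, and without PBS replicate 1 or 2 none was, beside 2.07% to 2.69% of all genes.

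The group comparison was repeated without each library. Without pIpC replicate 1, 15 of the genes rose and 5 fell, of the 38 that then passed the filter on low values (Ifi44 did not), beside 19.0% and 14.0% of all genes, and the median log2 difference was 0.54. Without PBS replicate 3, 24 rose and 6 fell, beside 35.1% and 30.3% of all genes, with a median of 0.87, and Irf7, Irf9, Dhx58, Zbp1 and Rtp4 then passed as higher and Stat2 and Herc6 as lower. Xaf1 passed as lower without pIpC replicate 1 (log2 difference -1.10, limma adjusted p = 0.0492). Calls were lost, with limma adjusted p from 0.108 to 0.267, for Parp9 without any library other than PBS replicate 3, Dtx3l without any pIpC library, Oas1a and Ifi35 without pIpC replicate 2 or 3, Eif2ak2 without pIpC replicate 1 or 2 and Oas2 without PBS replicate 1.

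Gene length separated the 39 genes within the groups. Their merged exons ranged from 756 bases in Isg15 to 9306 in Parp14. In PBS replicate 3 the 13 shortest genes were higher than in the other PBS libraries by a median of 0.81 on the log2 scale and the 13 longest were lower by a median of 0.36, and the Spearman correlation with length was -0.55 over the 39 genes. In pIpC replicate 1 the same correlation over the 39 genes was -0.58, with a median excess of 1.21 in the 13 shortest and 0.22 in the 13 longest, but over 15000 genes it was -0.08. The points of both correlations share a library and are not independent. Of the 4 genes with the largest excess in pIpC replicate 1, Ifit1, Ifit3 and Isg15 were among the 13 shortest. Ifi44, with 6129 bases, was among the 13 longest. After the trend with length over all genes was removed from each library, the median log2 difference of the 39 genes was 0.87, and pIpC replicate 1 exceeded the others by a median of 0.70 instead of 0.68.

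**Figure D3:**
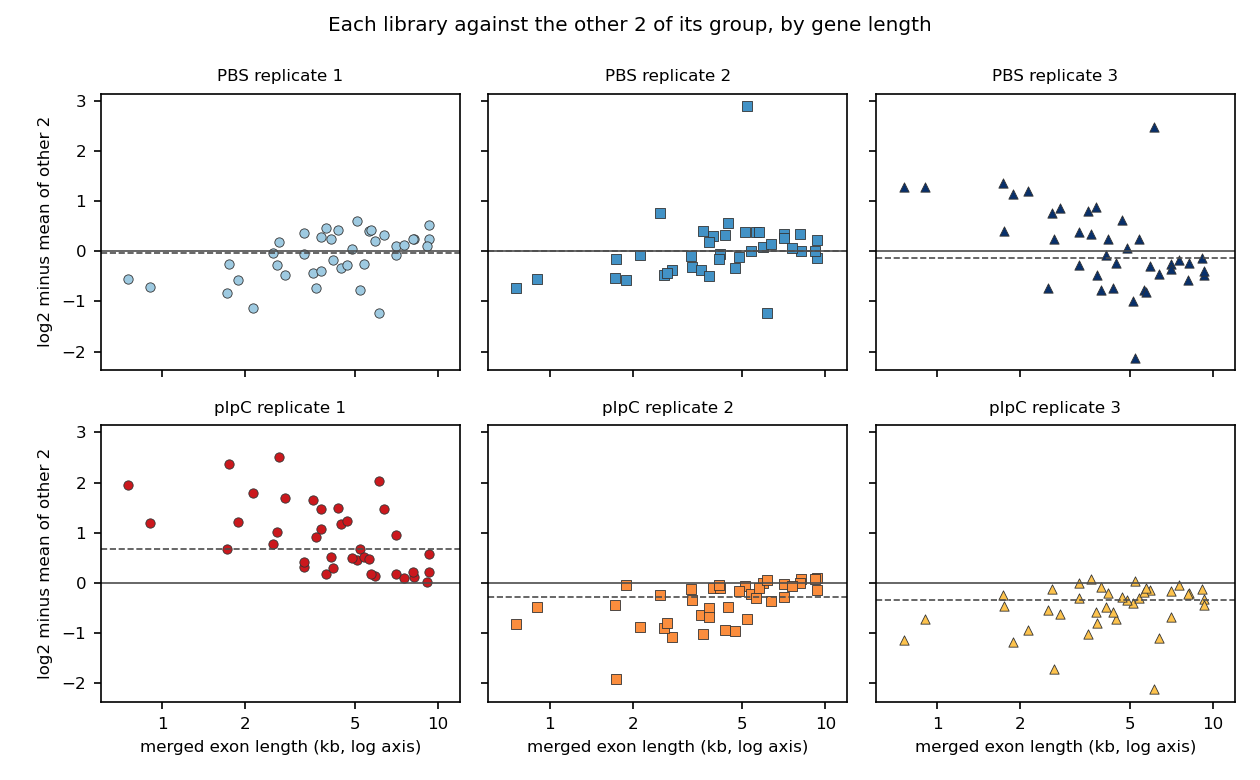
Difference of each library from the mean of the other 2 libraries of its group (vertical axis, log2 scale) against the merged exon length of the gene (kb, log axis) for the 39 genes; the dashed line is the median. In PBS replicate 3 short genes mostly lie above and long genes mostly below 0. In pIpC replicate 1 the median is 0.68, and the largest values are those of the short genes Ifit1 and Ifit3 and of the long gene Ifi44.

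The other genes of the pathway were read from 3 lists. Of 9 interferon genes, Ifnb1, Ifna1, Ifna2, Ifna4, Ifne, Ifnk, Ifnl2 and Ifnl3 had 0 reads in all 6 libraries, and Ifng had 1 read, in pIpC replicate 3. A count of 0 allows up to 3 reads in a library, counting error only, or 2.60 to 3.40 normalized counts. Of 17 receptor and signalling genes, 5 rose and 1 fell, beside 25.0% and 20.4% of all genes, with a median log2 difference of 0.24 against 0.01 over all genes tested. The receptor chains Ifnar1 and Ifnar2 differed by 0.05 and 0.02 (limma adjusted p of 0.787 and 0.894). Tmem173 (STING, the adaptor of DNA sensing) rose from 221, 165 and 217 to 816, 774 and 732, a log2 difference of 1.95 (SE 0.17, limma adjusted p = 0.000201), the kinase Ikbke rose by 1.65 (SE 0.16, limma adjusted p = 0.000357) and Jak1 by 0.73 (SE 0.20, limma adjusted p = 0.0259). Uba7 rose by 0.48 (SE 0.11, limma adjusted p = 0.0133). Mavs, the mitochondrial adaptor of Ddx58 and Ifih1, fell by 0.79 (SE 0.16, limma adjusted p = 0.00773). In this list pIpC replicate 1 was the highest pIpC library in 9 of 17 genes.

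Of 13 genes tested that are known for their response to interferon gamma, 11 rose and 1 fell, but 6 of the rises (Ciita, Cxcl9, Gbp4, Gbp5, Gbp6 and Tgtp1) passed the filter on low values only through the pIpC libraries and so had to differ. Of the other 7, 5 rose and 1 fell, beside 25.0% and 20.4% of all genes, with a median log2 difference of 0.83 against 0.01. pIpC replicate 1 was the highest pIpC library in 12 of the 14 listed. Ciita, the activator of MHC class II genes, was at 3.46, 2.02 and 0 in PBS and at 159, 127 and 93.8 in pIpC libraries (log2 difference 5.71, SE 0.59, limma adjusted p = 0.000463). Tgtp1, an immunity-related GTPase, was at 6.06, 11.1 and 7.92 against 294, 127 and 139 (4.25, SE 0.41, limma adjusted p = 0.000331). The chemokine Cxcl9 was at 1.73, 3.04 and 1.13 against 84.8, 30.7 and 37.7 (4.04, SE 0.50, limma adjusted p = 0.00101). Ido1, which degrades tryptophan, fell from 18.2, 26.3 and 23.8 to 4.99, 1.02 and 2.90 (-2.70, SE 0.49, limma adjusted p = 0.00562). Cxcl10, which type I interferon also induces, did not pass (0.42, SE 0.40, limma adjusted p = 0.436), and had its highest value, 48.9, in pIpC replicate 1.

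Lists of markers of other cell types did not single out pIpC replicate 1 in 1 direction. Its sum was the highest of the 3 pIpC libraries for erythroid markers, at 5733 against 3808 and 4887, and the lowest for B cell markers, at 1430.2 against 2329 and 2741. For 8 plasmacytoid dendritic cell markers, a cell type known for its interferon, the sums were 1132, 1015 and 755 in PBS and 2077, 2348 and 2057 in pIpC libraries. Runx2 gave 1018, 915 and 701 of these in PBS and 1141, 1214 and 1195 in pIpC libraries. Of the plasmacytoid dendritic cell markers tested, 4 of 6 passed the filter on low values only through the pIpC libraries. The same held for 8 of 10 B cell markers. For 12 monocyte and macrophage markers the sums were 39281 to 39533 in PBS and 43342, 38953 and 40825 in pIpC libraries. Most of this was Ly6c2, at 21467 to 25870 and 28840 to 32250. In limma 8 of the 12 rose and 3 fell, beside 25.0% and 20.4% of all genes tested. Examples were C1qa (log2 difference 3.82) and Adgre1 (-3.80). For 10 T and NK cell markers the sums were 190.3 to 325 and 4578, 3960 and 4312, with Nkg7 at 4312, 3702 and 4056 in pIpC libraries. The 7 of them tested all rose, beside 25.0% of all genes tested. Of these 7, however, 6 passed the filter on low values only through the pIpC libraries. The part of these markers in the excess of pIpC replicate 1 was not tested.

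**Figure D4:**
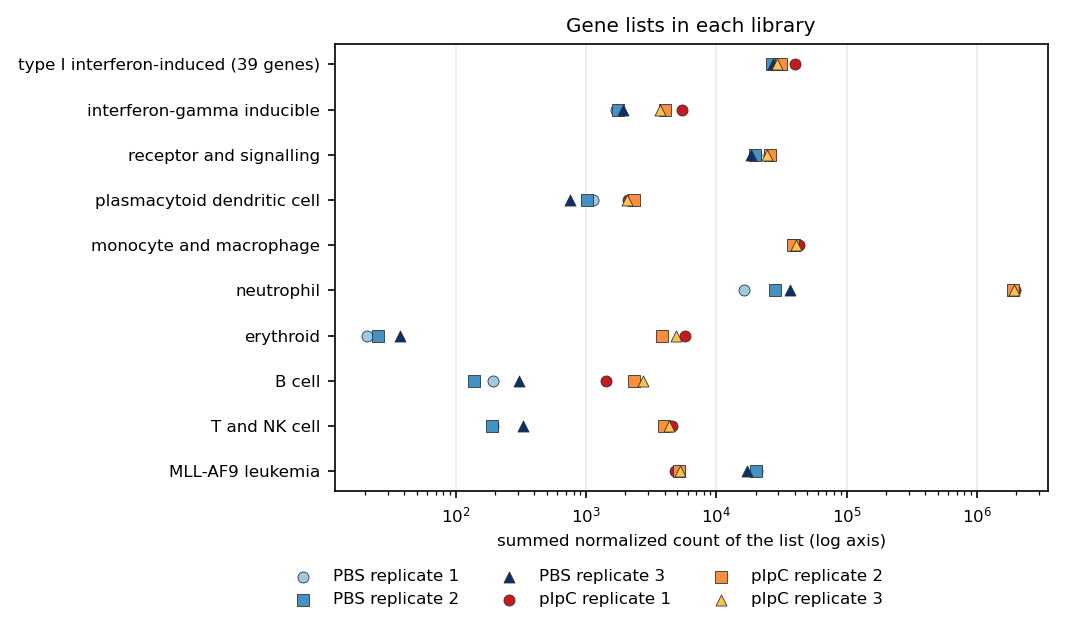
Summed normalized counts of the interferon-induced genes, of 2 other pathway lists and of 7 lists of cell type markers in each library (log axis). Neutrophil, erythroid, B cell and T and NK cell sums were higher in every pIpC library than in every PBS library. The sum of the MLL-AF9 leukemia genes was lower in every pIpC library. The interferon-induced genes summed to 26959 to 27516 in PBS and to 29054 to 39867 in pIpC libraries. Of these sums Sp100, which fell, gave 9336 to 10748 in PBS and 6270 to 6704 in pIpC libraries.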

How the data were processed

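RNA was poly(A)-selected and sequenced from 6 bone marrow samples, 3 PBS and 3 pIpC, grouped by the sample titles. The authors deposited one table of normalized counts, scaled by 1 size factor per library, a signal that is not a raw count. The study's methods name nf-core/rnaseq with STAR and RSEM on mm10 and stranded libraries. The submitters' processing notes name HISAT2 2.2.1, featureCounts and edgeR on GRCm38 and unstranded libraries, so reads of overlapping or antisense genes may not be separable. Division of each column by its smallest step gave whole reads (within 0.1) for 100% of values, and these recovered reads served in alternative tests.

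Symbols, positions and merged exon lengths came from GENCODE M21 (GRCm38; 55141 genes matched). limma 3.58.1 (R 4.3.3), its variance allowed to depend on intensity, was fitted to log2(normalized count + 1) of 15020 genes with a mean of at least 10, with Benjamini-Hochberg adjustment and a threshold of 0.1; differences of low genes are understated on this scale. The fit used PBS against pIpC, and then each pIpC library as its own group, against PBS and, added after the data were seen, against each other. edgeR 4.0.16 and DESeq2 1.42.0 were alternatives, beside other pseudocounts, filters and scalings, each library left out and a replicate block. Removal of the trend with length and the other scalings of the library order were added after the data were seen. The scripts were tested on simulated data. The depth per library is given with the results.

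The 39 genes, the other lists and the tests were chosen with earlier results of these data known, so a count over them is a description. Values in every library were given for called genes without overlap (up to 12), the extremes of each role, the most variable genes and Mx1, Irf7, Stat2, Irf9, Isg15 and Tlr3; genes outside this rule were named after their values were seen. Deviations of same-numbered libraries from their group means had correlations of -0.117, 0.143 and 0.041, so replicate numbers were not taken as pairs. Values of some genes on the lists are not reported here.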

Additional observations from a re-analysis of the deposited data

How the results depend on the processing

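Between 18 and 30 of the 39 genes passed under every alternative, against 23 as reported, 24 with edgeR and 28 with DESeq2. The median log2 difference lay between 0.54 and 1.10. Of all genes tested, 25.0% rose and 20.4% fell as reported, 23.7% and 22.2% with edgeR, and 25.5% and 24.2% with DESeq2. The 30 were called without PBS replicate 3, where 35.1% of all genes rose and 30.3% fell. Over all genes, 3750 rose and 3058 fell as reported, but 3244 rose and 4078 fell after quantile normalization. Of 736 repeats for single genes, 684 kept their direction and side of the threshold, 26 lost the call, 19 gained it and 7 reversed. Usp18 reversed with edgeR (0.027) and DESeq2 (0.034), and ranged from -0.70 to 0.22 with 1 library left out. With 1 library left out, Isg15 ranged from -0.22 to 0.86 and Mx1 from -0.21 to 0.54, both negative without pIpC replicate 1. The single-library counts moved most: with 1 PBS library left out they ranged from 0 to 32 for pIpC replicate 1, from 0 to 25 for replicate 2 and from 0 to 27 for replicate 3. For replicates 1 and 2, an adjusted p under 0.05 left 4 and 3 genes. For replicate 2, 3 were called with a pseudocount of 0.1, 3 without the intensity trend and 9 with edgeR. Removal of the trend with length gave 19, 10 and 11 for replicates 1, 2 and 3, of which 0, 2 and 3 were lower, and quantile normalization gave 1 lower in replicate 3; without PBS replicate 3, 2, 6 and 8 were lower. The cause was not tested. Between single pIpC libraries, 0 of the 39 genes passed limma with any 1 PBS library left out. With the replicate block, 22 of the 39 genes passed, where 22.6% of all genes rose and 18.0% fell. With the length trend removed as well, 23 passed, where 24.8% of all genes rose and 21.5% fell. The numbers do not pair the libraries. Genes such as Tlr3 and Ifi44, with under 10 reads in each PBS library, are limited by depth.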

Other observations

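Among genes outside the 39, chosen after their values were seen, the interferon-inducible gene Ifi27l2a had the same order of libraries, with normalized counts of 55.4, 65.8 and 106 in PBS and of 304, 73.6 and 70.6 in pIpC libraries. Oas1g, a near-identical copy of Oas1a, was at 263, 293 and 485 in PBS and at 489, 187 and 79.3 in pIpC libraries. Thus pIpC replicate 1 was level with PBS replicate 3, and the other pIpC libraries were below every PBS library. The excess of pIpC replicate 1 over the mean of the other pIpC libraries was 2.06 on the log2 scale for Ifi27l2a and 1.996 for Oas1g. Genes with a larger excess in that library included the immunoglobulin segments Igkv5-45 (9.47) and Ighv1-78 (6.67), but also genes of other kinds such as Xlr3b (4.02) and Psma8 (3.32). Having been chosen for their values, these genes were not tested.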
